A study of Mus musculus with 4 samples.

Results

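The 37 genes described here encode the actin cytoskeleton of mouse aortic endothelial cells, the transcription factor SRF with its cofactors, and the factors named for mesenchymal transition. They were chosen by symbol: actins, contractile and actin-binding genes, SRF cofactors and mesenchymal transition factors. All 37 had a row among the 27179 genes of the deposited count table, 2 of them, Mkl1 and Mkl2, under their newer names Mrtfa and Mrtfb. The study sequenced total RNA of mAEC cells, a cultured line of murine aortic endothelial cells that models the lining of a large artery. In the conditioned medium group (2 libraries) the cells received supernatant taken from TNFα+CD68+ macrophages, that is, macrophages marked by the inflammatory cytokine TNFα and the lysosomal protein CD68. In the control group (2 libraries) they grew in normal medium. Both groups are the same line with no other treatment named, and neither the dose nor the duration of exposure is given in the sources used here.

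Endothelial cells hold their shape, their junctions and their barrier through a cortex of actin filaments and through contractile bundles driven by nonmuscle myosin. Free actin monomers bind the cofactors MKL1 and MKL2 and keep them out of the nucleus. When filaments grow, the cofactors are released, join SRF on a DNA element called the CArG box and drive actin and contractile genes. The SNAI, ZEB and TWIST factors repress epithelial and endothelial junction genes, and they are followed as marks of endothelial to mesenchymal transition, in which smooth muscle and matrix genes rise.

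Libraries summed to 13815695 and 18005840 counts in conditioned medium and to 14966911 and 14493674 counts in control, so that 3 counts equalled 0.167 to 0.217 CPM, a count scaled to library size. Levels of genes are given as CPM with the library sizes further scaled by TMM, which corrects for differences in composition. The 8 endothelial markers summed to 6419 and 6345 CPM in conditioned medium and to 6386 and 6365 CPM in control, and 0 of the 8 rose and 2 fell, Kdr (-0.16 ± 0.04, edgeR adjusted p = 0.0123) and Emcn (-0.13 ± 0.04, edgeR adjusted p = 0.0298). Neither was called without either treated library (edgeR adjusted p = 0.215 to 0.374), nor Emcn in DESeq2 (adjusted p = 0.0553). Kdr and Emcn are 25% of the 8 markers, beside 16.8% called among all genes tested. Of 8 macrophage markers 6 had at most 3 counts in every library, while Cd68 itself stood at 240.8 and 248.9 CPM in conditioned medium and at 220 and 248 CPM in control. Smooth muscle markers other than Smtn summed to 2.53 to 3.77 CPM. Smtn stood at 239 and 237 CPM in conditioned medium and at 224 and 235 CPM in control. Of 6 epithelial markers 3 were at 0 in all libraries. Krt18 had 9.45 and 9.20 CPM in conditioned medium and 6.70 and 7.46 CPM in control. It was not called (edgeR adjusted p = 0.0653). Among the endothelial markers, Vwf was low, with 2.38 and 3.38 CPM in conditioned medium and 2.30 and 3.49 CPM in control. The series calls the replicates biological, but nothing says that they came from separate cultures, so p-values measure only the spread between these samples, which may be technical. Fewer cells of a type and less RNA per cell cannot be told apart in bulk samples, nor can a batch that followed the groups be told apart from the treatment.

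Of the 37 genes, 32 passed the filter on low counts and entered a two-sided quasi-likelihood test in edgeR, with p-values adjusted by the Benjamini-Hochberg method over all 13897 genes tested and a call made at an adjusted p under 0.05. In conditioned medium 4 rose (Mkl1, Actg1, Ezr and Snai1) and 5 fell (Myl6, Myl12a, Mylk, Myh10 and Zeb2), 23 were not called and 5 were too low to test. The 9 called genes are 28.1% of the 32, against 16.8% called among all genes tested, 8.53% higher and 8.23% lower. The median log2 fold change over the 32 was -0.03. The median absolute log2 fold change was 0.10 over the 32 and 0.13 over all genes tested, and the called genes changed by 1.11-fold to 1.39-fold. The CPM of conditioned medium and control libraries lay apart in 22 of the 32 genes, beside 57.2% of all genes tested. Of the 32 genes 16 had an unadjusted p under 0.05, as had 29.5% of all genes tested. The whole set took 1.603% and 1.608% of the counts in conditioned medium and 1.646% and 1.648% in control.

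DESeq2 called 5 of the 37 (Actg1 and Ezr higher, Myl6, Myl12a and Mylk lower), against 6.82% of all genes it tested. limma-voom called 12, the same 4 rises and 8 falls, against 16.7% of all genes. With 1 library left out, the fit called 12 of the 37 without control replicate 1 (17.1% of all genes), 17 without control replicate 2 (21.9%), 3 without conditioned medium replicate 1 (5.71%) and 2 without conditioned medium replicate 2 (4.03%). Those last calls were Ezr and Snai1 higher and Mylk lower without conditioned medium replicate 1, and Ezr higher and Mylk lower without conditioned medium replicate 2. With a single treated library the spread came from the control pair alone, whose libraries differed more from each other (SD of the log2 ratio 0.15 over well-counted genes) than the treated pair did (0.12), and the lone library was taken to vary as they did.

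**Figure D1:**
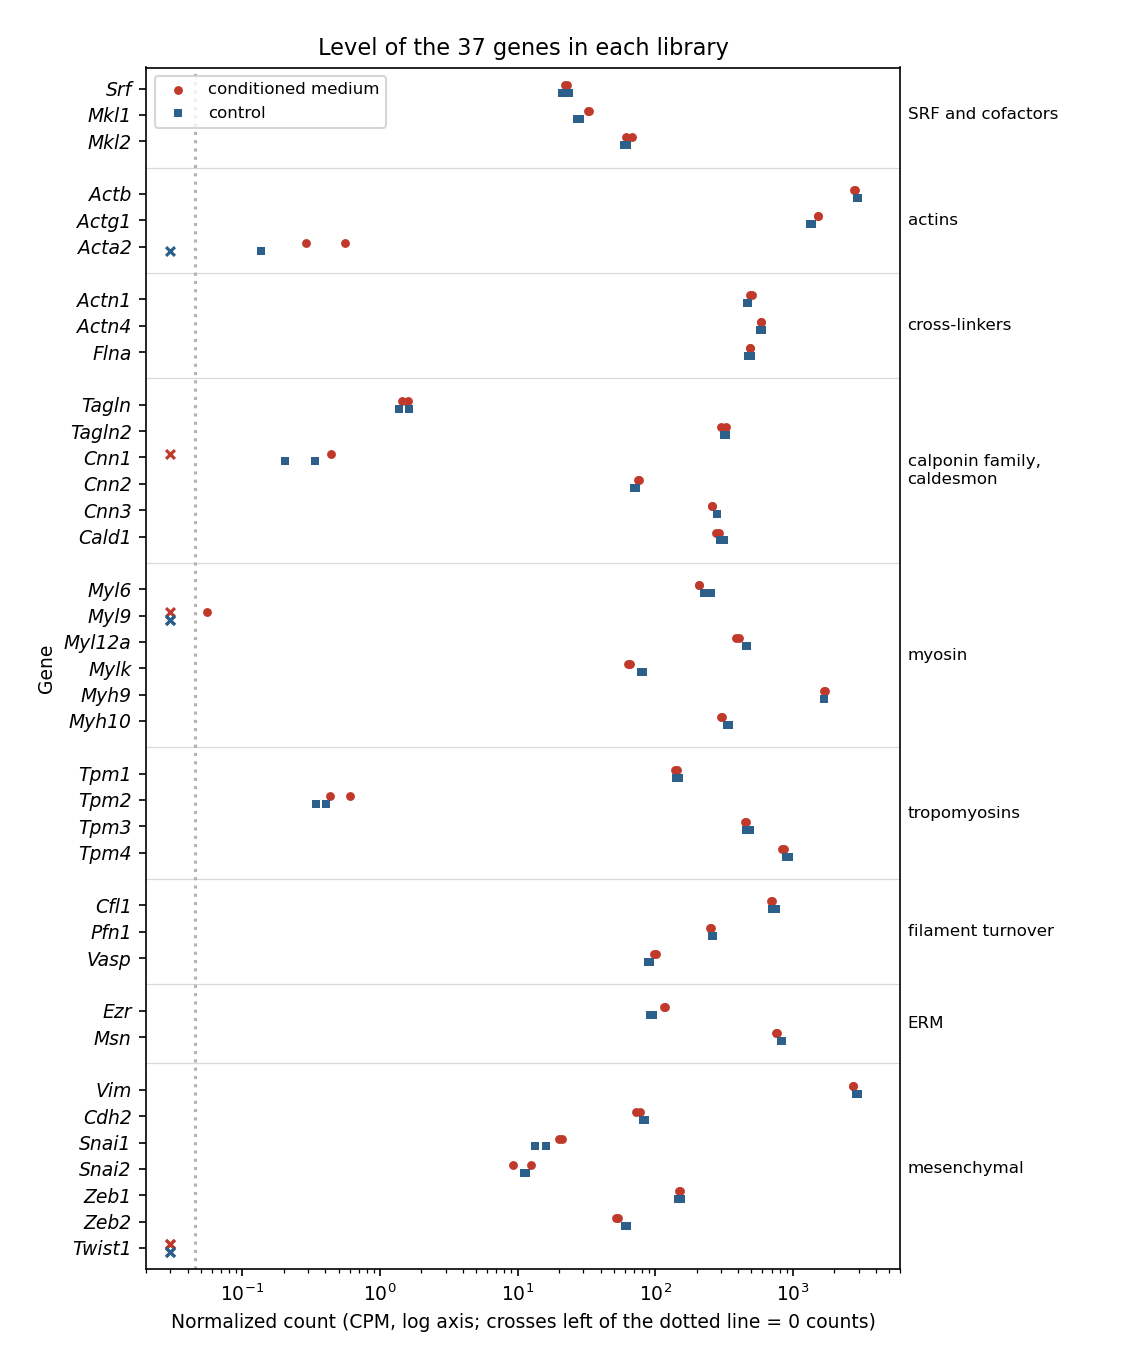
Normalized count (CPM, log axis) of each of the 37 genes in each library, with conditioned medium libraries as red circles and control libraries as blue squares; crosses left of the dotted line mark 0 counts. Actb, Vim, Myh9 and Actg1 were at the top, at 1338 to 2995 CPM, while Acta2, Cnn1, Myl9, Tpm2 and Twist1 lay below 1 CPM.

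**Figure D2:**
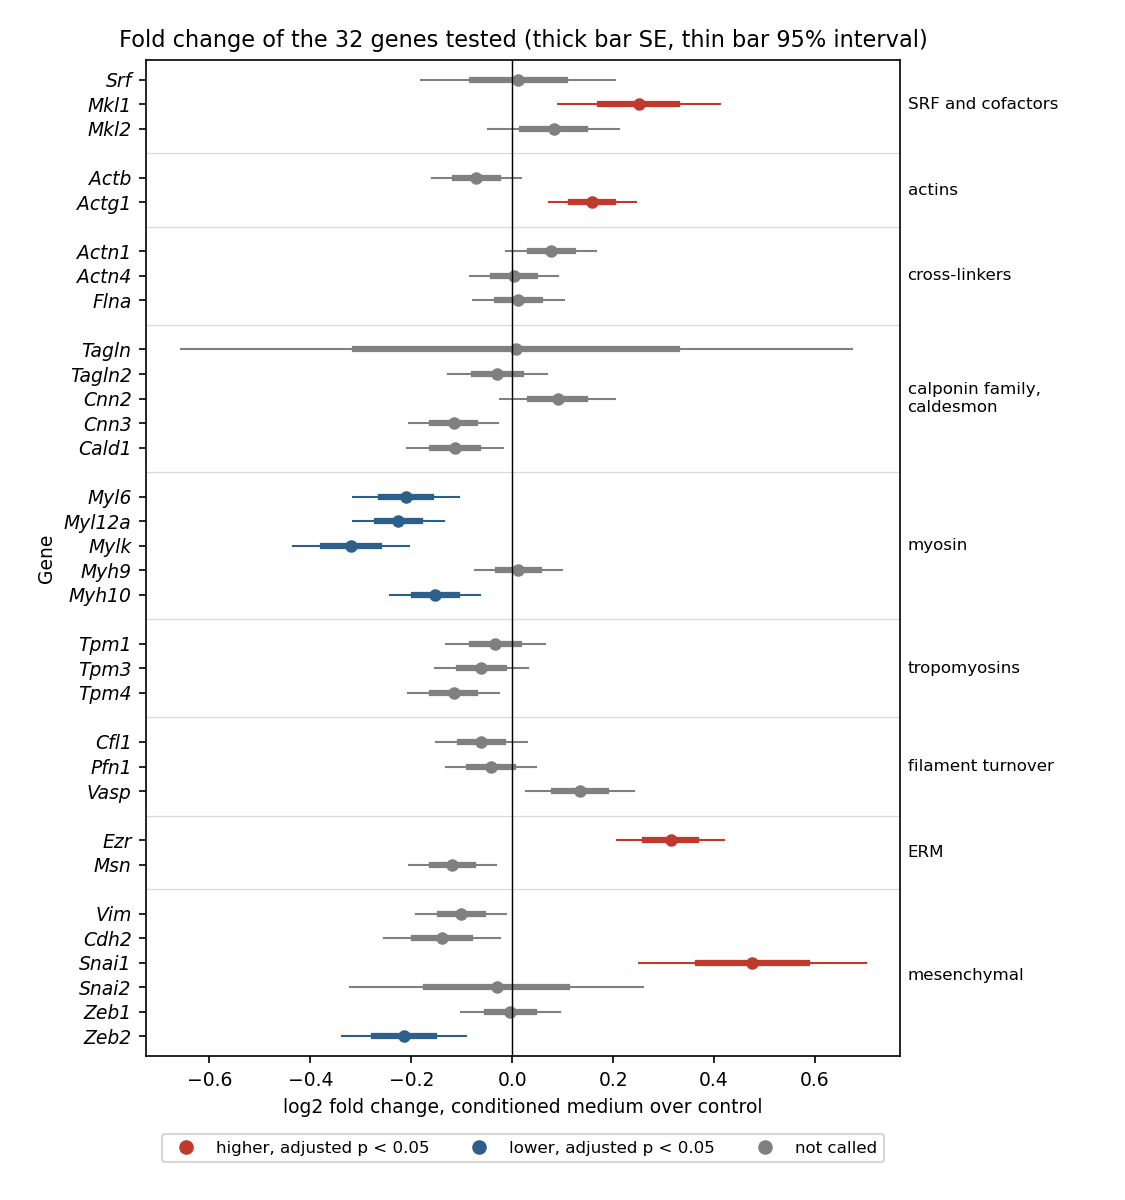
Log2 fold change, conditioned medium over control, of the 32 genes tested, grouped by role. Points are edgeR estimates, thick bars the SE and thin bars the 95% interval, not adjusted for multiple tests; the 4 red genes rose and the 5 blue genes fell at an adjusted p under 0.05.

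Of SRF and its 2 cofactors, 1 rose, the cofactor gene Mkl1. Among all genes tested 8.53% rose. Srf had 21.9 and 23.0 CPM in conditioned medium, against 23.7 and 20.9 CPM in control. The control libraries enclosed the conditioned medium libraries. Its log2 fold change was 0.01 (95% interval -0.18 to 0.20), and no change was detectable at its 304 to 415 counts per library. Mkl1, the actin-sensing coactivator of SRF, had 33.2 and 32.3 CPM in conditioned medium, against 28.2 and 26.8 CPM in control, a rise of 0.25 ± 0.08 (SE) in log2 units (edgeR adjusted p = 0.0288). Both treated libraries lay above both controls. The call was lost without control replicate 2 (0.21 in log2 units, edgeR adjusted p = 0.0784), without conditioned medium replicate 1 (0.23, edgeR adjusted p = 0.210), without conditioned medium replicate 2 (0.27, edgeR adjusted p = 0.178) and in DESeq2 (adjusted p = 0.358). Mkl2, its close relative, had 67.7 and 61.0 CPM in conditioned medium and 61.8 and 59.4 CPM in control, with overlapping groups, and was not called (edgeR adjusted p = 0.411).

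The CArG box, here CC and GG around 6 bases that are each A or T, was searched for on both strands in the 250 bases before each annotated start site with a RefSeq promoter window (GRCm38.p6, the same build as mm10). The pattern reads alike on either strand. Actb, Tagln, Cdh2, Snai2 and Zeb1 had no such window, so they were not searched. Of the 32 genes of the set with a window, 5 held at least 1 box, or 15.6%, against 1.62% of all 27025 genes with a window. These are Srf, Actg1, Cnn2, Myl6 and Myl9, and their sequence around the box is printed because it is the element through which SRF acts; capitals mark the box. The set was chosen for SRF, actin and contractile genes, so a higher share of boxes could follow from that choice alone. Srf carried 2 boxes, which began 82 and 62 bases before an annotated start site, and the box of Actg1 began 90 bases before one.
Srf, chr17:46556190-46556289, minus strand: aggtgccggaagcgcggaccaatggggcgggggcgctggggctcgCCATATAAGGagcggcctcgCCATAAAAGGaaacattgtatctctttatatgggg
Actg1, chr11:120348531-120348630, minus strand: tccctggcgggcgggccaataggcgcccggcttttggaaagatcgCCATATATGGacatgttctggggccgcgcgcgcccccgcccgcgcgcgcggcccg
Cnn2, chr10:79988499-79988598, plus strand: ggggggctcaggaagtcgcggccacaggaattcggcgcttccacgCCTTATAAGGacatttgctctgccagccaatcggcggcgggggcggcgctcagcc
Myl6, chr10:128493010-128493104, minus strand: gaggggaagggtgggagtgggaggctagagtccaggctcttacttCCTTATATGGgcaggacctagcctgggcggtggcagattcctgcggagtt
Myl9, chr2:156775258-156775357, plus strand: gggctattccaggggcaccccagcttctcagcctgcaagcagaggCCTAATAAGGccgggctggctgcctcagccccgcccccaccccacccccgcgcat

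Of the 5 genes with a box 1 rose and 1 fell. Actg1 rose, Myl6 fell, Srf (0.01) and Cnn2 (0.09) were not called, and Myl9 had 1 count in conditioned medium and 0 in control. Among all 139 tested genes with a CArG box in the window, 15 rose and 16 fell, or 22.3% called with a median log2 fold change of -0.02, beside 16.9% called and a median of 0.00 over the 10142 tested genes with a window. A match to the consensus is a description of the letters and not evidence of binding.

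Of the 2 cytoplasmic actins, which form the filaments of nonmuscle cells, 1 rose and the other was not called. Actg1, γ-actin, on chromosome 11 at 120345687 to 120348495 in mm10, had 1518 and 1521 CPM in conditioned medium, against 1338 and 1384 CPM in control, and rose by 0.16 ± 0.04 in log2 units (edgeR adjusted p = 0.0111). Actb, β-actin, had 2831 and 2759 CPM in conditioned medium, against 2953 and 2917 CPM in control, which gave -0.07 ± 0.04 and no call (edgeR adjusted p = 0.275). The groups did not overlap for either gene, with the treated libraries above the controls for Actg1 and below them for Actb. Groups lay apart in 57.2% of all genes tested. The ratio of Actg1 to Actb counts within a library, which no scaling can alter, was 0.536 and 0.552 in conditioned medium and 0.453 and 0.475 in control, 1.17 times as high in conditioned medium. With 2 libraries against 2, an exact permutation test of such a ratio cannot go below p = 0.333, and none is given. Together the pair took 0.436% and 0.429% of the counts in conditioned medium and 0.423% and 0.434% in control, with overlapping groups. Actg1 lost its call without conditioned medium replicate 1 (0.16, edgeR adjusted p = 0.254) and without replicate 2 (0.16, edgeR adjusted p = 0.293), and Actb was called lower without control replicate 2 (edgeR adjusted p = 0.0149). Of the 50-base words in annotated Actg1 transcripts 37.4% also occur in another gene's transcripts, against 9.12% for Actb, and how the authors' counting treated such reads is unknown, so the Actg1 level is uncertain.

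**Figure D3:**
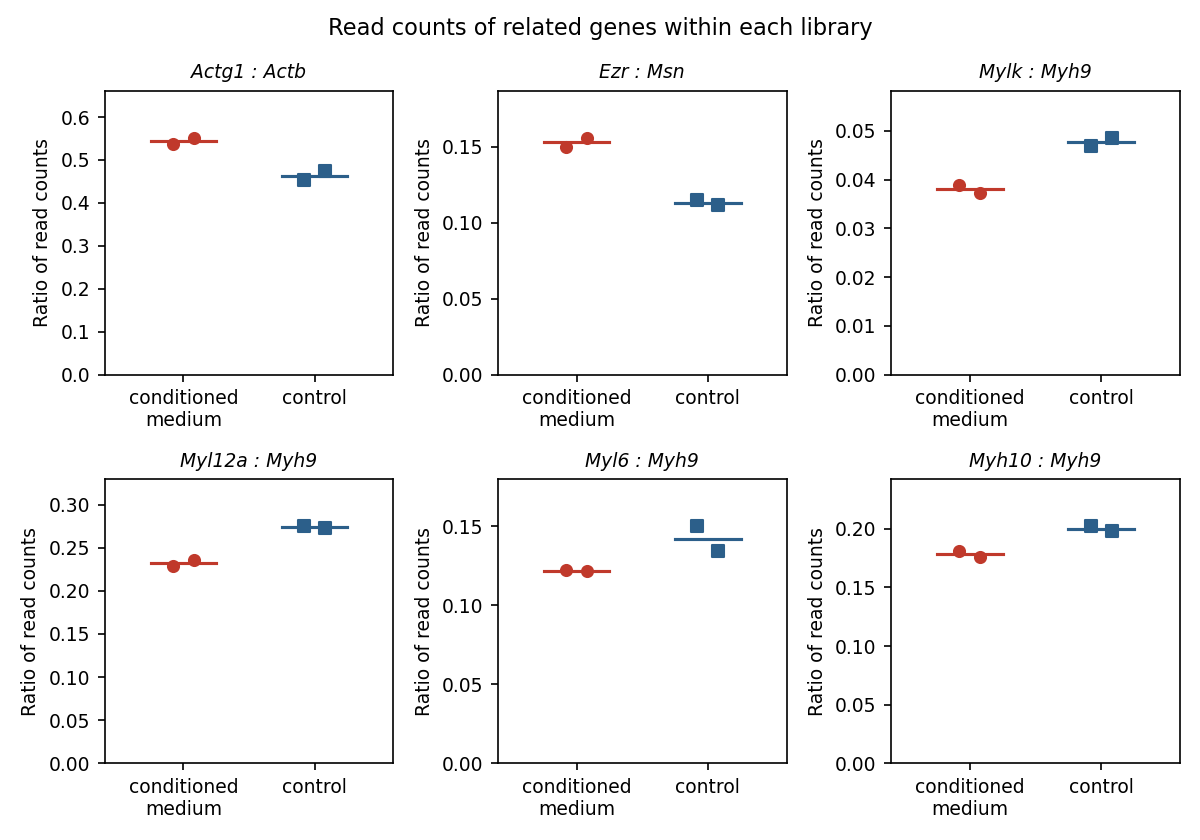
Ratio of read counts of 2 genes within each library (y axis, from 0), with conditioned medium on the left and control on the right; points are libraries and lines the mean of 2. In all 6 pairs the groups do not overlap: Actg1 to Actb and Ezr to Msn are higher in conditioned medium, and Mylk, Myl12a, Myl6 and Myh10 to Myh9 are lower. Each pair holds a gene called in these same data, so the gap is no separate support. Tpm4 to Tpm3, with neither gene called, did not overlap either (1.81 and 1.92 in conditioned medium, 1.93 and 1.94 in control). The CPM of 57.2% of all genes tested lay apart.

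Per kilobase of exon, Actb was the most abundant of the 37 genes, with 1456 ± 26.6 CPM per kb in conditioned medium and 1529 ± 13.3 CPM per kb in control (SD, n = 2). Vimentin followed with 1246 ± 14.2 CPM per kb in conditioned medium and 1337 ± 41.1 in control, and Actg1 with 779 ± 1.10 in conditioned medium and 697 ± 16.7 in control. Tpm4 (396 ± 8.21 CPM per kb in conditioned medium, 430 ± 17.4 in control) and Cfl1 (280 ± 2.21 in conditioned medium, 292 ± 11.97 in control) came next, and the first 12 places were in the same order in both groups. Acta2, the smooth muscle actin, stood at the other end. Its counts were 4 and 10 in conditioned medium, against 2 and 0 in control, which is below the count filter and gave no test.

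Nonmuscle myosin II was the role in which most genes were called. It is a motor of 2 heavy chains, each with an essential light chain and a regulatory light chain, and phosphorylation of the regulatory chain by myosin light chain kinase switches on contraction. Of 6 genes, 5 were tested, 4 fell and 0 rose, with a median log2 fold change of -0.21. Among all genes tested 8.23% fell and 8.53% rose, and the 6 genes were chosen with earlier results of these data known. Mylk, the kinase, fell furthest. It lies on chromosome 16 at 34745199 to 35002436 in mm10 and had 65.5 and 63.6 CPM in conditioned medium, against 79.2 and 81.7 CPM in control, which is -0.32 ± 0.05 in log2 units (edgeR adjusted p = 3.36e-04). The groups were apart by more than the spread within either, and the call held under all 13 alternatives (log2 fold change -0.34 to -0.30, adjusted p up to 0.0498).

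Myl12a, a regulatory light chain, had 385 and 403 CPM in conditioned medium, against 464 and 459 CPM in control, or -0.23 ± 0.04 in log2 units (edgeR adjusted p = 8.70e-04). Its neighbour and near copy Myl12b, singled out after its values were seen, fell as well, to 288 and 295 CPM in conditioned medium against 339 and 336 CPM in control (-0.21 ± 0.04, edgeR adjusted p = 0.00144). The 2 share 16.2% of the 50-base words of Myl12a, and how the authors' counting split shared reads is unknown. Myl6, the essential light chain, had 206 and 208 CPM in conditioned medium, against 253 and 226 CPM in control (-0.21 ± 0.05, edgeR adjusted p = 0.00579). Its 2 controls stood further apart than its treated libraries, and the log2 fold change was -0.13 without control replicate 1 and -0.29 without control replicate 2.

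Of the heavy chain genes, Myh10 fell and Myh9 was not called. Myh9, the more abundant one per kilobase, had 1687 and 1710 CPM in conditioned medium and 1687 and 1682 CPM in control, a log2 fold change of 0.01 with a 95% interval of -0.07 to 0.10. Myh10 had 306 and 301 CPM in conditioned medium, against 341 and 333 CPM in control, and fell by 0.15 ± 0.04 on the log2 scale (edgeR adjusted p = 0.0164). Within a library, Myh10 counts were 0.181 and 0.176 of Myh9 counts in conditioned medium and 0.202 and 0.198 in control. The ratio of Mylk to Myh9 was 0.0388 and 0.0372 in conditioned medium, against 0.0470 and 0.0486 in control, 0.795 times as high. Myl9, the light chain typical of smooth muscle, had 0 and 1 count in conditioned medium and 0 in both controls. Without conditioned medium replicate 1, Myl6, Myl12a, Myl12b and Myh10 lost their calls (edgeR adjusted p = 0.146, 0.128, 0.116 and 0.197 in that order), as they did without conditioned medium replicate 2 (edgeR adjusted p = 0.157, 0.0548, 0.0808 and 0.281 in that order). By DESeq2 the adjusted p of Myh10 was 0.0669.

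Of the cross-linkers and calponin family genes in the set, none was called. Among the 3 cross-linkers none had an unadjusted p under 0.05, and none was called by DESeq2 or limma-voom. α-Actinin 1 (Actn1) had 484 and 508 CPM in conditioned medium and 467 and 473 CPM in control (edgeR adjusted p = 0.240). Actn4 had a 95% interval of -0.08 to 0.09 around a log2 fold change of 0.00, and Flna, filamin A, one of -0.08 to 0.10 around 0.01. In the calponin family and caldesmon, whose products lie along actin filaments and restrain myosin, 0 of 5 tested were called by edgeR, DESeq2 or limma-voom, with 2 at an unadjusted p under 0.05 by edgeR; DESeq2 gave Tagln no adjusted p. Those were Cnn3 (-0.12 ± 0.04, edgeR adjusted p = 0.0672) and Cald1 (-0.11 ± 0.05, edgeR adjusted p = 0.099995), whereas Cnn2 was at 0.09 and Tagln2 at -0.03. Tagln, the smooth muscle member known as SM22α, had 22 and 26 counts in conditioned medium and 24 and 20 in control, a log2 fold change of 0.01 with a 95% interval of -0.66 to 0.67, and Cnn1 had 0 and 8 counts in conditioned medium and 5 and 3 in control. At that depth changes of 1.11-fold to 1.39-fold, the range of the called genes, were not detectable in either. Of the 50-base words of Tagln transcripts 58.4% also occur in another gene's transcripts, and the share was 24.0% for Cnn3, 23.2% for Tpm3, 18.3% for Cfl1 and 15.7% for Tpm4, so these levels are uncertain too.

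Tropomyosins, which coil along filaments and set which motors and severing proteins reach them, were likewise not called by edgeR, with 1 of 3 at an unadjusted p under 0.05, Tpm4. Tpm4 had 831 and 856 CPM in conditioned medium, against 940 and 888 CPM in control (-0.12 ± 0.04, edgeR adjusted p = 0.0732; 0.0422 by limma-voom). Tpm3 was at -0.06 and Tpm1 at -0.03, and Tpm2 had 6 and 11 counts in conditioned medium and 6 and 5 in control. All 3 estimates lay below 0, though the Tpm1 and Tpm3 libraries overlapped between groups. Of the genes that turn filaments over, cofilin 1 (Cfl1), which severs them, was at -0.06, profilin 1 (Pfn1), which charges monomers, at -0.04, and Vasp, which lengthens filaments at their tips, had 101 and 97.9 CPM in conditioned medium against 92.0 and 88.9 CPM in control (0.13 ± 0.05, edgeR adjusted p = 0.0808). Of these 3 turnover genes none was called by edgeR, DESeq2 or limma-voom, and 1, Vasp, had an unadjusted p under 0.05 by edgeR. Without control replicate 2, Actb, Cnn3, Cald1, Tpm3, Tpm4, Cfl1, Msn, Vim and Cdh2 were also called lower (edgeR adjusted p up to 0.0386), so that 14 of the 37 were called lower there instead of 5. Calls were more frequent without control replicate 2 over all genes tested too, as given above. Cnn3, Msn and, as a rise, Vasp were also called without control replicate 1.

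Ezrin and moesin tie filaments to the plasma membrane, and the ezrin gene rose. Ezr, on chromosome 17 at 6738131 to 6782780 in mm10, had 115 and 118 CPM in conditioned medium, against 95.9 and 91.1 CPM in control, up by 0.31 ± 0.05 in log2 units (edgeR adjusted p = 1.78e-04). Both treated libraries lay well above both controls, and the call held under all 13 alternatives (log2 fold change 0.28 to 0.35, adjusted p up to 0.0385). Msn, the more abundant of the pair per kilobase, had 767 and 755 CPM in conditioned medium, against 836 and 817 CPM in control, or -0.12 ± 0.04 in log2 units (edgeR adjusted p = 0.0548). It just missed the threshold and passed it in 4 alternatives: limma-voom, the robust estimate of the spread and without either control library. Radixin (Rdx), the other protein of the family and singled out after its values were seen, fell by 0.17 ± 0.04 on the log2 scale (edgeR adjusted p = 0.0110), a call lost without either treated library and in DESeq2 (adjusted p up to 0.232). The ratio of Ezr to Msn counts was 0.150 and 0.156 in conditioned medium and 0.115 and 0.112 in control, 1.35 times as high in conditioned medium.

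**Figure D4:**
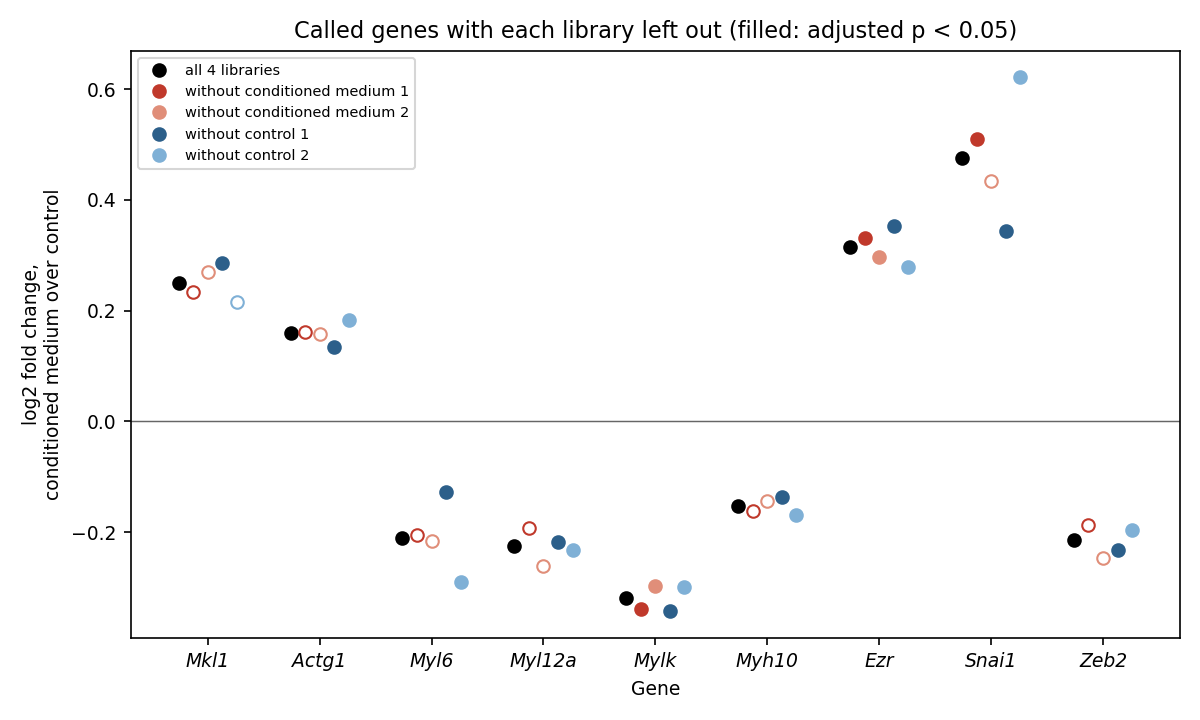
Log2 fold change, conditioned medium over control, of the 9 called genes with all 4 libraries (black) and with each library left out; filled points have an adjusted p under 0.05. No gene changed sign, and Mylk and Ezr are filled throughout, while the other 7 are open without conditioned medium replicate 2.

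Of the 7 mesenchymal genes, 1 rose (Snai1), 1 fell (Zeb2), 4 were not called and Twist1 was too low to test. The 2 called are 33.3% of the 6 tested, beside 16.8% of all genes tested. Snai1, which encodes the repressor Snail, on chromosome 2 at 167538195 to 167542814 in mm10, had 19.8 and 20.9 CPM in conditioned medium, against 13.3 and 16.1 CPM in control, up by 0.48 ± 0.11 in log2 units (edgeR adjusted p = 0.00390). This was the largest change in the set, 1.39-fold, on 275 and 377 counts in conditioned medium and 196 and 235 in control, and the groups did not overlap. The call was lost without conditioned medium replicate 2 (edgeR adjusted p = 0.129) and in DESeq2 (adjusted p = 0.0932), and the log2 fold change ran from 0.34 without control replicate 1 to 0.62 without control replicate 2. Its relative Snai2, or Slug, had 9.31 and 12.6 CPM in conditioned medium, which enclosed the 11.2 and 11.5 CPM in control (edgeR adjusted p = 0.913). Twist1 had 0 counts in every library, which allows up to 0.167 to 0.217 CPM.

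Zeb2 fell, to 51.7 and 53.8 CPM in conditioned medium against 60.5 and 62.0 CPM in control, or -0.21 ± 0.06 in log2 units (edgeR adjusted p = 0.0155; 0.196 without conditioned medium replicate 1, 0.119 without conditioned medium replicate 2 and 0.229 in DESeq2). Zeb1, the more abundant of the 2 per kilobase, had 148 and 152 CPM in conditioned medium and 154 and 147 CPM in control, a log2 fold change of 0.00 with a 95% interval of -0.10 to 0.09. Vimentin (Vim), an intermediate filament protein of mesenchymal and endothelial cells, had 2711 and 2755 CPM in conditioned medium, against 2995 and 2868 CPM in control (-0.10 ± 0.04, edgeR adjusted p = 0.115). N-cadherin (Cdh2) had 72.9 and 77.9 CPM in conditioned medium, against 84.7 and 81.7 CPM in control (-0.14 ± 0.06, edgeR adjusted p = 0.0917). For both, the treated libraries lay below the controls without overlap, but the groups lay apart in 57.2% of all genes tested. By limma-voom, Vim was called lower (adjusted p = 0.0407). Set against VE-cadherin (Cdh5), the junction protein of endothelium, Cdh2 counts were 0.0362 and 0.0392 of Cdh5 counts in conditioned medium and 0.0448 and 0.0425 in control.

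Markers of other mesenchymal cells were measured beside these results. Fibroblast markers summed to 39.9 and 39.7 CPM in conditioned medium and 31.8 and 34.0 CPM in control, most of it Pdgfra, which rose by 0.28 ± 0.08 in log2 units (edgeR adjusted p = 0.0171; 0.0657 without control replicate 1, 0.121 and 0.191 without conditioned medium replicates 1 and 2, and 0.280 in DESeq2), with 2 of 8 at 0 in all libraries. Pericyte markers summed to 14.4 and 16.1 CPM in conditioned medium and 11.2 and 11.6 CPM in control, with 2 of 6 at 0 in all libraries; Notch3 rose by 0.85 ± 0.17 (edgeR adjusted p = 0.00137; 0.0884 without conditioned medium replicate 2 and 0.0512 in DESeq2), to 7.43 and 8.65 CPM in conditioned medium against 4.67 and 4.31 CPM in control. Of 3 fibroblast and 2 pericyte markers tested, 1 each was called, beside 16.8% of all genes tested. Pdgfrb overlapped between groups, with 6.64 and 7.15 CPM in conditioned medium and 6.16 and 7.05 CPM in control (edgeR adjusted p = 0.825). Col3a1 (-0.46 ± 0.31, edgeR adjusted p = 0.337) and Fbln1 (0.45 ± 0.18, edgeR adjusted p = 0.0982) pointed opposite ways and were not called. The part of these markers in the changes above was not tested.

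Beyond the set, 125 other genes of the same pathways were listed by role, with earlier results of these data known. Of the 112 tested, 17 rose and 23 fell, or 35.7% called, with a median log2 fold change of -0.03. Among all genes tested 16.8% were called, 8.53% higher and 8.23% lower. Among 24 genes that nucleate filaments, all of them tested, 3 rose and 2 fell, led by Diaph2, a formin (-0.28 ± 0.06), Daam1, a formin of the Wnt pathway (0.25 ± 0.05), and Arpc3, a subunit of the ARP2/3 complex (-0.16 ± 0.04). Diaph2 and Arpc3 lost their calls without either treated library and in DESeq2 (adjusted p = 0.0521 to 0.247), and Daam1 without conditioned medium replicate 1 (edgeR adjusted p = 0.107). Of 21 tested genes of filament turnover 2 rose and 4 fell. Limk1, the kinase that inactivates cofilin, rose to 96.0 and 96.1 CPM in conditioned medium against 79.2 and 75.8 CPM in control (0.31 ± 0.05, edgeR adjusted p = 2.87e-04), and Tmod3, which caps the pointed end, fell by 0.27 ± 0.04 on the log2 scale. Tmsb10, a monomer-binding thymosin, had 373 and 367 CPM in conditioned medium, against 482 and 385 CPM in control, and its log2 fold change of -0.23 was -0.06 without control replicate 1 (edgeR adjusted p = 0.320). It was also not called without either treated library, without a count filter, with a robust spread or in DESeq2 (adjusted p up to 0.573).

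Cross-linking, spectrin and cortex genes had the highest share of calls of the 5 lists described here, with 4 of 18 higher and 9 lower. That is 72.2% called, beside 16.8% of all genes tested, in a list chosen with earlier results known. Palld, palladin of stress fibres, rose by 0.27 ± 0.06 on the log2 scale, and Add1, α-adducin of the spectrin cortex (-0.24 ± 0.04), and Pls3, the bundling protein plastin 3 (-0.22 ± 0.05), fell. Palld and Pls3 lost their calls without either treated library (edgeR adjusted p = 0.0743 to 0.103), as did Palld in DESeq2 (adjusted p = 0.0676) and Add1 without conditioned medium replicate 2 (edgeR adjusted p = 0.0777).

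Among 18 tested SRF target genes outside the set 3 rose and 2 fell, with a median of 0.02. That is 27.8% called, beside 16.8% of all genes tested. Ccn2, also a target of YAP, had 225 and 229 CPM in conditioned medium, against 368 and 381 CPM in control, or -0.72 ± 0.04 in log2 units (edgeR adjusted p = 8.26e-10), whereas Fhl2, a LIM protein, rose to 19.98 and 21.1 CPM in conditioned medium against 15.9 and 12.25 CPM in control (0.55 ± 0.11, edgeR adjusted p = 0.00212; 0.106 without conditioned medium replicate 2) and Filip1l fell by 0.31 ± 0.05 on the log2 scale. Of 19 mesenchymal and matrix genes 12 were tested, 3 rose and 2 fell, or 41.7% called. S100a4, also known as fibroblast-specific protein, had 96.6 and 85.6 CPM in conditioned medium, against 56.4 and 43.5 CPM in control (0.86 ± 0.08, edgeR adjusted p = 4.43e-07). Fn1, fibronectin, which was singled out after its values were seen, rose by 0.37 ± 0.04 on the log2 scale, while Tgfb2, a ligand that can start the transition, fell by 0.48 ± 0.07 on the log2 scale. Ddr2, singled out in the same way, fell by 0.45 ± 0.08 on the log2 scale (edgeR adjusted p = 2.58e-04). Collagen I genes and Twist2 were at or near 0: Col1a1 had 3 and 11 counts in conditioned medium and 3 and 4 in control, and Col1a2 and Twist2 had none.

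**Figure D5:**
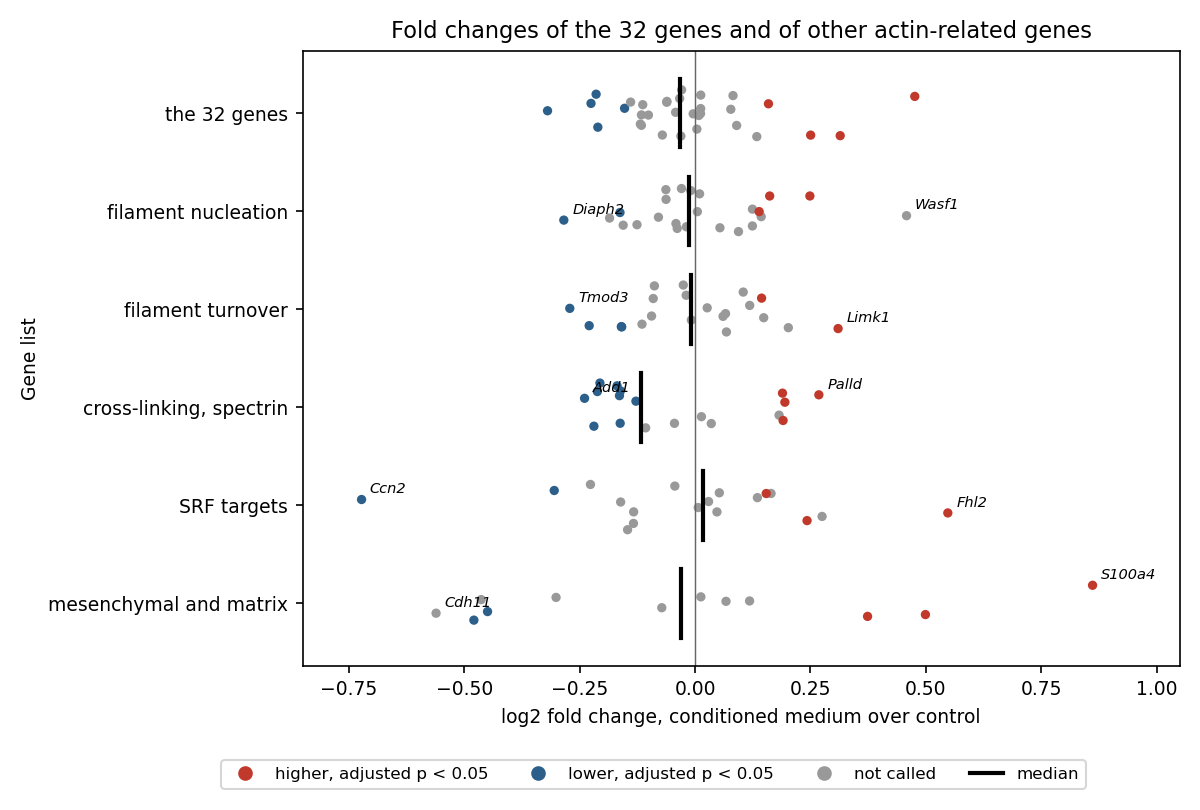
Log2 fold change, conditioned medium over control, of the 32 genes tested and of the tested genes in 5 other lists; each point is a gene, coloured by its call, and black bars are list medians. The medians lie between -0.12 and 0.02, and the genes farthest from 0 are S100a4 at 0.86 and Ccn2 at -0.72.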

How the data were processed

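RNA of 4 libraries was sequenced after preparation with a TruSeq kit that does not mark strand. The authors deposited raw read counts per Entrez gene, and per the submitters' processing notes these came from STAR 2.5.2b, featureCounts and Subread 1.4.6-p1 on mm10; neither their settings nor the annotation used is given in the sources used here. Symbols and coordinates were taken from RefSeq (GRCm38.p6); 25275 of 27179 rows matched, and the 1904 others, with 6.31% of counts, stayed in the fit. Low genes were dropped with filterByExpr (minimum count 10, total 15), TMM scaled the libraries, and edgeR 4.0.16 in R 4.3.3 compared the groups with its quasi-likelihood test, with no replicate block and 2 residual degrees of freedom. Calls were made at an adjusted p under 0.05, and a gene's own 2 residual degrees of freedom were not used alone. Each SE is the size of the log2 fold change divided by the root of its F statistic. CPM were computed from the deposited counts, and CPM per kb with the union of exons in GENCODE M21 basic. Limits set by counts, such as 3 counts for an absence, cover counting error only.

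The members and lists were chosen with earlier results of these data known. All members are named, and of each other list the 3 called genes with the largest absolute change; 1 list and 1 gene that meet this rule are not reported here and stay in the counts; the promoters shown are those that hold a CArG box, chosen after the windows were read. As alternatives, libraries were scaled by RLE, by upper quartiles or by totals only; genes were kept without a filter or at 1 CPM in 2 libraries; the replicate number entered as a block; the spread was estimated robustly; DESeq2 1.42.0 and limma-voom (limma 3.58.1) replaced edgeR; and each library was omitted once. The procedure was tested on simulated data. Shared 50-base words were counted over GENCODE M21 transcripts on both strands.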

Additional observations from a re-analysis of the deposited data

How the results depend on the processing

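Over all genes 2330 were called, against 860 in DESeq2 and 569 to 3107 with 1 library left out. Of the 37 genes 4 rose and 5 fell, 2 and 3 in DESeq2, with 8 falls in limma-voom; leaving out 1 library gave 1 to 5 rises and 1 to 14 falls. Of the 125 other genes 17 rose and 23 fell, 8 and 14 in DESeq2, and 5 to 21 and 7 to 31 with 1 library left out. The remaining scalings, filters and the robust spread kept these counts within 1.5 times. Apart from Ddr2, whose alternatives were not compared, no called gene that is named changed sign under any alternative. The deviations of same-numbered libraries from their group means had a correlation of -0.04 over 10660 well-counted genes. With 2 libraries per group, this value showed no pairing by number but cannot exclude one. The fit with a replicate block called 2671 genes, 4 rises and 5 falls in the set and 18 and 22 in the other lists. Depth limits Acta2, Cnn1, Myl9, Tpm2 and Twist1, which were not testable, and Tagln, Snai2 and Srf, whose intervals are wide. No outlying library could be looked for in groups of 2.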
